A study of Mus musculus with 4 samples.

Results

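The genes described here are those whose symbol starts with Kcn or Cacn, that is, the subunits of potassium channels and of voltage-gated calcium channels, with 3 noncoding RNAs that carry such a symbol. Membership was read from the platform annotation alone and used no measured value. It covered 108 of 18193 named genes, read by 222 of 45037 probe sets, each annotated to 1 gene. Each of 4 expression arrays held RNA of whole adrenal glands from male mice aged 2 months: 2 arrays of wild-type mice and 2 of V1a knockout mice (V1a_KO), in which the V1a vasopressin receptor gene, Avpr1a, is knocked out. No label states a strain, a treatment or which part of the gene was deleted. Nor does any label tie each array to its own animal, so p-values reflect only how far these samples scatter, and that scatter may be technical. The comparison asks which channels the gland reads above background and which of them differ between the genotypes.

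Potassium channels let potassium leave the cell and hold the membrane at a negative voltage, and voltage-gated calcium channels open when that voltage is lost and let calcium in. In the adrenal cortex, glomerulosa cells are held near the potassium equilibrium by leak channels, and angiotensin II or extracellular potassium depolarises them, which opens calcium channels and drives aldosterone synthesis. Chromaffin cells of the medulla fire action potentials, and calcium entry through several channel types triggers catecholamine release, while large-conductance calcium-activated potassium (BK) channels and small-conductance (SK) channels shape the firing. V1a acts through Gq and calcium.

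Values are log2 expression units as deposited, with a floor that weak probe sets share and a highest value of 14.92, and 4 log2 units stand in for the background level. Testing was limited to probe sets at 4 or more on 2 arrays at least: 17228 in all, which read 10110 named genes. Wild-type array 1 stood apart from the others: across tested probe sets it correlated with them at 0.919 to 0.924, while the other 3 correlated with each other at 0.974 to 0.986. The 2 probe sets of Avpr1a read 2.31 to 2.60 over all arrays, below the filter in wild type too, so they check nothing about the genotype labels. The labelled tissue was borne out by its markers: 11 of 11 chromaffin markers, 9 of 9 markers of steroid-making cortex and 4 of 4 measured zona glomerulosa markers lay at or above 4 on all 4 arrays.

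Few channel genes were read above background. Of the 108 genes, 22 (20.4%) had a probe set at or above 4 on all 4 arrays, against 53.0% of all named genes. By probe set the count was 28 of 222, against 42.6% of all one-gene probe sets. A further 6 reached 4 on 2 or 3 arrays, 3 on a single array, and 77 on none. The highest value of any array and probe set was below 3 in 62 genes. The share was 17 of 81 for potassium channel subunits and 5 of 24 for calcium channel subunits. Pore-forming subunits passed in 13 of 66 potassium channel genes and 3 of 9 calcium channel genes. The two-pore-domain leak channels (Kcnk) had 4 of 12 genes above background, the inward rectifiers (Kcnj) 2 of 15, the Shaker-type voltage-gated channels (Kcna) 0 of 7, and the calcium channel gamma subunits (Cacng) 0 of 8. A low reading is not absence: 14 of the 28 tested channel genes also had a probe set that stayed below 3 on all arrays, and a transcript of a rare cell type is diluted in whole-gland RNA. The level used for background also sets the count, which was 37 genes at 3 log2 units and 10 at 6.

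**Figure D1:**
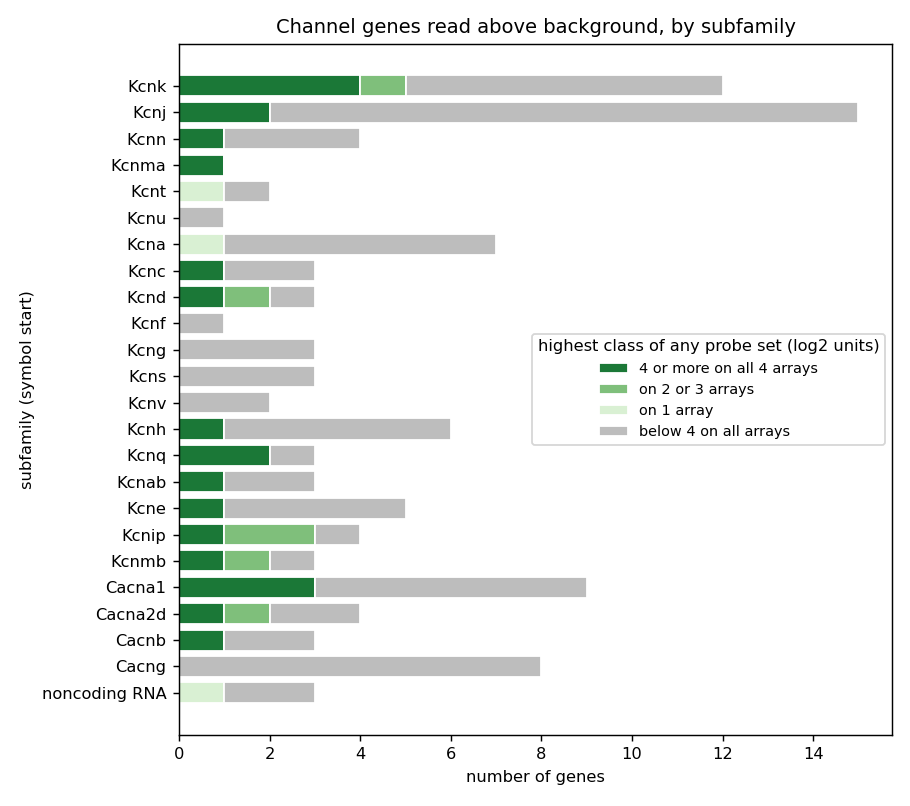
The plot gives the number of channel genes per subfamily (x axis: number of genes) by how many arrays their best probe set reached 4 log2 units on. Kcnk had 4 of 12 genes in the top class, Kcnj 2 of 15, and Kcna and Cacng had 0.

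Several channels with a known place in adrenal physiology were not read above background. Kcnj5, the inward rectifier most often mutated in human aldosterone-producing adenomas, was at 2.33 to 2.39. Its possible partners Kcnj3 and Kcnj6 were at 2.53 to 2.71 and 2.53 to 2.55. Kcna4, a fast-inactivating voltage-gated channel, was at 2.34 to 2.63. Cacna1g, a T-type calcium channel, was at the floor on all arrays. Cacna1a and Cacna1b, the P/Q-type and N-type calcium channels used for exocytosis, read 2.87 on every array and 3.55 to 3.84. Kcnn1, Kcnn3 and Kcnn4, small- and intermediate-conductance calcium-activated channels, reached at most 3.36, 2.31 and 2.81. Channels usual in tissues that could be carried over with the gland were at or near the floor too: Cacna1s and Cacng1 of skeletal muscle reached 2.34 and the floor value, and Kcnj1 of the kidney tubule 2.34. A further 16 genes of the 2 families were not analysed here.

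No channel probe set passed an adjusted p of 0.05 in limma. All 35 channel probe sets that could be tested, from 28 genes, missed it (0 of 35, 0.00% of all 17228 tested probe sets called). At an unadjusted p under 0.05 limma gave 4 channel probe sets, 2 of Kcnk3 and 1 each of Kcnmb4 and Kcnn2, that is 11.4% of 35 against 5.14% of all tested probe sets. Lower in the knockout were 3 of them (8.57% of 35, against 3.01% of all), and 1 was higher (2.86%, against 2.13%). With at least a 2-fold difference and an unadjusted p under 0.01 there were 3, the same probe sets of Kcnk3 and Kcnmb4, against 0.836% of all. A 2-fold difference at any p was seen in 4 probe sets, these 3 and Kcnd2, against 5.29% of all. By gene, with the brightest probe set standing for each, 2 of 28 had an unadjusted p under 0.05 in limma, against 5.06% of all genes: Kcnn2 higher, against 2.14%, and Kcnmb4 lower, against 2.93%. Kcnmb4 was also the single gene with a 2-fold difference and an unadjusted p under 0.01 (0.692% of all genes), and Kcnmb4 and Kcnd2 were the 2 genes with a 2-fold difference at any p (4.36% of all genes). The median difference, knockout minus wild type, was -0.08 over the 28 genes and -0.05 over all tested genes, with 12 channel genes higher, 15 lower and 1 at 0. The count of channel probe sets at an unadjusted p under 0.05 in limma was 8 of 35 without wild-type array 1 (22.9%, against 2062 of all 17228 tested probe sets, a lower share), 9 without wild-type array 2 (25.7%, against 37.8%), 1 without knockout array 1 (2.86%, against 0.981%) and 3 without knockout array 2 (8.57%, against 1.19%). The channel share thus lay below the overall share in 1 of these 4 fits and above it in the other 3. The median turned to 0.19 without wild-type array 1 and was -0.16 without wild-type array 2, -0.11 without knockout array 1 and 0.02 without knockout array 2.

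The genotypes did not overlap in 11 of the 35 channel probe sets (31.4%, against 37.4% of all tested probe sets). In 5 both knockout arrays were higher (Kcnn2, Kcnd2, Kcnab3 and 1 probe set each of Kcnma1 and Cacnb2), against 17.4% of all tested probe sets, and in 6 both were lower (Kcnmb4, Kcnmb2, Kcnip4, Cacna1h and 2 probe sets of Kcnk3), against 20.0%. These shares, 14.3% and 17.1% of 35, were no larger than those over all tested probe sets. By gene the count was 8 of 28 (28.6%, against 37.7% of all genes), 4 higher (14.3%, against 17.1%) and 4 lower (14.3%, against 20.5%). Among the lower genes, Kcnmb2 passed the filter through its wild-type arrays alone.

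**Figure D2:**
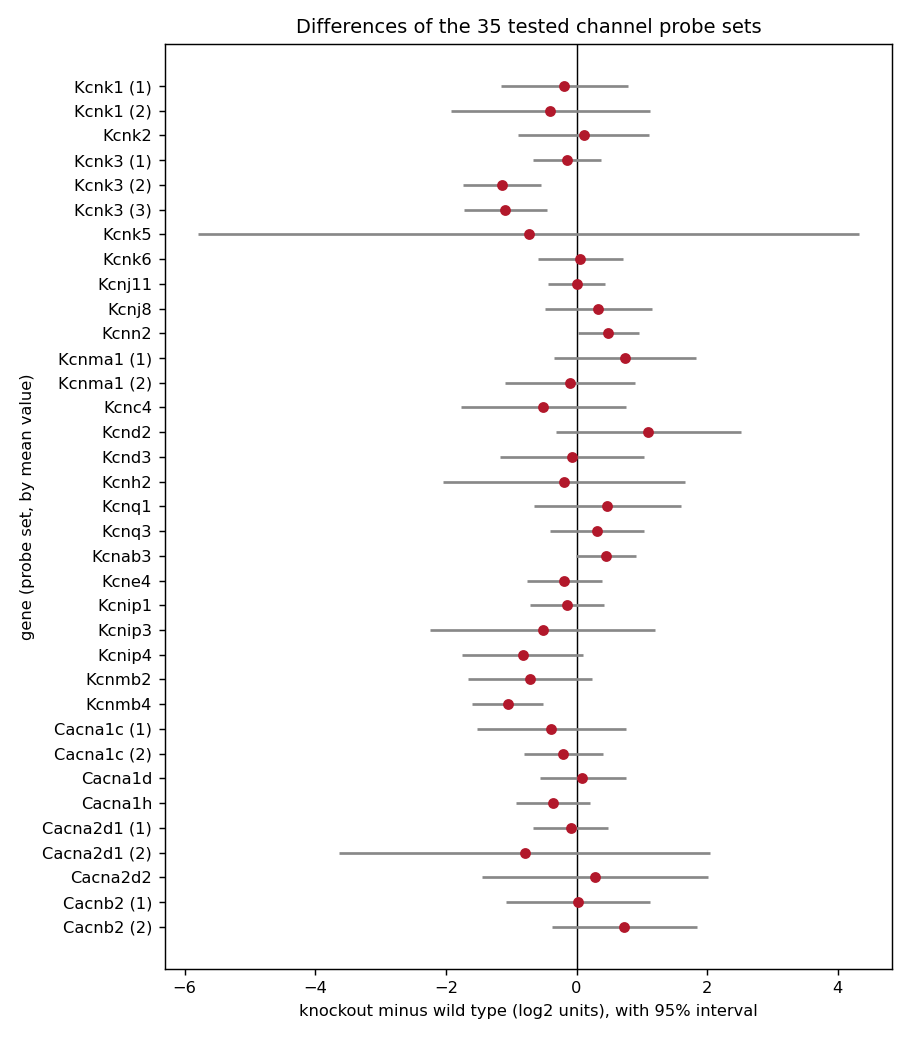
The plot gives the difference, knockout minus wild type (x axis: log2 units), with limma's 95% interval for each of the 35 tested channel probe sets, numbered by mean value within a gene. The intervals of Kcnk3 probe sets 2 and 3, Kcnmb4 and Kcnn2 lie off 0 before adjustment, and those of the other 31 include it.

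Among leak channels, Kcnk3 (TASK-1) gave probe sets that differed from each other. TASK-1 is an acid-sensitive leak channel of the zona glomerulosa, inhibited through Gq-coupled receptors. The brightest probe set of Kcnk3 read 13.17 and 12.93 in wild-type glands against 12.85 and 12.98 in knockout glands. The genotypes overlapped there, with a difference of -0.14 (SE 0.18, 95% interval -0.66 to 0.38). The second read 9.15 and 8.80 in wild-type glands against 7.75 and 7.92 in knockout glands, both knockout arrays below both wild-type arrays, a difference of -1.14 (SE 0.21, limma unadjusted p = 0.00681, adjusted p = 0.794). The third read 8.15 and 8.25 against 7.33 and 6.89, a difference of -1.09 (SE 0.23, limma unadjusted p = 0.00992, adjusted p = 0.794). The dimmer 2 probe sets thus read 2.20-fold and 2.13-fold lower in the knockout before adjustment, and the first did not share that size. Why the probe sets differ was not tested. With each array left out in turn the second probe set differed by -1.31 to -0.96 (limma unadjusted p 0.00668 to 0.0675) and the third by -1.31 to -0.87 (limma unadjusted p 0.0288 to 0.0709).

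Kcnk1 (TWIK-1), a weakly conducting leak channel, read 9.77 and 9.09 in wild-type glands against 9.48 and 9.00 in knockout glands, a difference of -0.19 (SE 0.34, 95% interval -1.16 to 0.78). Kcnk2 (TREK-1), a lipid- and stretch-sensitive leak channel, read 8.66 and 8.06 against 8.78 and 8.16, a difference of 0.11 (SE 0.35, 95% interval -0.89 to 1.11). Kcnk5 (TASK-2), an alkaline-activated leak channel, read 7.29 and 2.99 in wild-type glands against 5.50 and 3.31 in knockout glands. The 2 arrays of each genotype were far apart there, so the difference of -0.73 had an SE of 1.77. Kcnk6 read 4.22 to 4.61 on all arrays. The other 7 leak channels, Kcnk4, Kcnk7, Kcnk10, Kcnk12, Kcnk13, Kcnk15 and Kcnk16, stayed at or below 2.62.

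Of the inward rectifiers, Kcnj8 and Kcnj11, both pores of ATP-sensitive channels, passed the level set for background, and the reading of Kcnj11 is doubtful. Kcnj8 (Kir6.1), their pore in vascular smooth muscle and pericytes, read 6.54 and 5.89 in wild-type glands against 6.61 and 6.48 in knockout glands, a difference of 0.33 (SE 0.29, 95% interval -0.49 to 1.15), which was 0.65 without wild-type array 1 and 0.00 without wild-type array 2. Abcc9, the sulfonylurea receptor that pairs with Kcnj8 and is no member by symbol, read 7.15 and 7.42 against 7.82 and 7.80, a difference of 0.53 (SE 0.18, limma unadjusted p = 0.0499, adjusted p = 0.794). Markers of smooth muscle and pericytes stood at 6 of 8 above background. Rgs5 and Pdgfrb of pericytes differed by 0.52 and 0.89, and Pdgfrb read 7.84 and 8.99 in wild-type glands against 9.27 and 9.34. Acta2 and Tagln of smooth muscle differed by -0.72 and -0.74. Des and Mylk of the same list differed by -0.46 and -0.22, lower on both knockout arrays. Myh11 and Cnn1 were below background. The summed level of the list was 11.33 and 11.38 in wild-type glands against 11.21 and 11.36 in knockout glands, on a log2 scale. Their part in the reading of Kcnj8 and Abcc9 was not tested. In bulk RNA, fewer cells of a type and less RNA per cell cannot be told apart. Kcnj11 (Kir6.2), the pore of the ATP-sensitive channel of pancreatic beta cells, read 7.17 on each array, to every digit deposited, as 50 of 17228 tested probe sets did, and its other probe set was at 2.31. A value that does not move between arrays holds no information on a genotype difference, and without Kcnj11 only Kcnj8 of this subfamily would be above background. Abcc8, its usual receptor, was below background.

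Among calcium-activated channels, the brightest probe set of the BK channel pore read higher in the knockout and the beta-4 subunit lower. No call was made after adjustment. Kcnma1, its pore, read 9.09 and 10.00 in wild-type glands against 10.15 and 10.42 in knockout glands. Both knockout arrays were higher, and wild-type array 1 was the lowest, with a difference of 0.74 (SE 0.38, limma unadjusted p = 0.128, adjusted p = 0.794). It was 0.29 without wild-type array 1 and 1.20 without wild-type array 2. The second tested probe set of Kcnma1 overlapped between genotypes, with a difference of -0.10 (SE 0.35), and 3 further ones reached at most 3.23. Kcnmb4, the beta-4 subunit, which slows BK gating and makes the channel resistant to some toxins, read 6.81 and 7.06 in wild-type glands against 5.79 and 5.97 in knockout glands. Both knockout arrays lay below both wild-type arrays, and the spread within a genotype (SD 0.18 and 0.13) was far smaller than the difference of -1.05 (SE 0.19, 95% interval -1.60 to -0.51), which is 2.08-fold. In limma this gave an unadjusted p of 0.00640 and an adjusted p of 0.794. Without each array in turn the difference of Kcnmb4 was -1.18 to -0.93 and limma's unadjusted p 0.00965 to 0.0684, the largest without knockout array 1. Kcnmb2, the beta-2 subunit, which inactivates BK currents in chromaffin cells, was near background. Its tested probe set read 4.74 and 4.02 in wild-type glands against 3.85 and 3.50 in knockout glands, a difference of -0.71 (SE 0.33, limma unadjusted p = 0.105, adjusted p = 0.794). That probe set passed the filter through the wild-type arrays alone, so the selection favoured a lower reading in the knockout. The difference was -0.35 without wild-type array 1 and -1.07 without wild-type array 2. The other probe set of Kcnmb2, not tested, read 4.79 and 3.94 against 3.94 and 3.61, and the genotypes overlapped there. Kcnmb1, the beta-1 subunit of smooth muscle, was at the floor.

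The sequences before the annotated starts of Kcnma1 and Kcnmb4 are shown because these are the pore of the BK channel and its beta subunit with the smallest p. They are the first 250 bases of RefSeq's promoter windows on GRCm38.p6, 5′ to 3′ on the minus strand, with GC boxes (GGGCGG on either strand, the site of Sp1) in capitals. Kcnma1 is at chr14:24004206-24004455 and Kcnmb4 at chr10:116473524-116473773.
Kcnma1: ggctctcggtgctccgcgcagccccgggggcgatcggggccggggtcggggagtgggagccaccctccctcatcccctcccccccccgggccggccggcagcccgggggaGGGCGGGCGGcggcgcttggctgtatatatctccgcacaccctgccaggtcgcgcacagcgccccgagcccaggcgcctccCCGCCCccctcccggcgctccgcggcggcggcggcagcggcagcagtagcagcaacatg
Kcnmb4: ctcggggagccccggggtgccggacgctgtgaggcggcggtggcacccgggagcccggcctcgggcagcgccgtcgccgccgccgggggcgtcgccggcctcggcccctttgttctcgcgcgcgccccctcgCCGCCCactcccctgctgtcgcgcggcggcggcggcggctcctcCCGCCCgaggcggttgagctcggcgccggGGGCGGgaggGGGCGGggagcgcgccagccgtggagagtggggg
Both stretches are rich in G and C, at 78.0% and 79.0% over the whole windows of 300 bases, and hold 3 and 4 GC boxes, where the first pair in Kcnma1 overlaps. Of all windows, 35.7% hold a GC box. Windows were found for 82 of the 108 channel genes. By gene, with any of its windows counted, a GC box was present in 10 of 14 genes read above background on all arrays. It was present in 44 of the other 68 and in 38.2% of all genes with a window. The NR5A1 (SF-1) site CAAGGTCA, searched on both strands as the site of the main steroidogenic transcription factor, was in 0 of the 14, 1 of the 68 and 1.76% of all genes with a window. The full cAMP response element TGACGTCA was in none of these 82 and in 2.03% of all genes, and its core TGACG, which lies within it, in 6 of 14, 14 of 68 and 23.0% of all genes. These are matches of letters, not sites.

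Kcnmb4 lies on chromosome 10, as Avpr1a does, with 41 protein-coding genes between them in GRCm38.p6. Of these, 23 were tested, and 17 lay higher and 6 lower in the knockout. Their median was 0.20, with a range of -0.53 to 0.84. Over all 10110 tested genes, 4433 lay higher and 5657 lower. The neighbours of Kcnmb4 went both ways: Ptprb, an endothelial phosphatase, differed by -0.69 (SE 0.27) and Cnot2, a subunit of the deadenylase complex, by 0.47 (SE 0.46). The antisense RNAs Kcnmb4os1 and Kcnmb4os2 were at the floor on all arrays.

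Kcnn2 (SK2), the small-conductance calcium-activated channel, was the member with the smallest p among those that read higher in the knockout. It read 9.31 and 9.45 in wild-type glands against 9.84 and 9.89 in knockout glands. The genotypes did not overlap, and the difference was 0.48 (SE 0.16, limma unadjusted p = 0.0450, adjusted p = 0.794), or 1.40-fold. The unadjusted p was 0.199 and 0.233 without knockout array 1 and 2. Of the SK genes only Kcnn2 was above background.

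**Figure D3:**
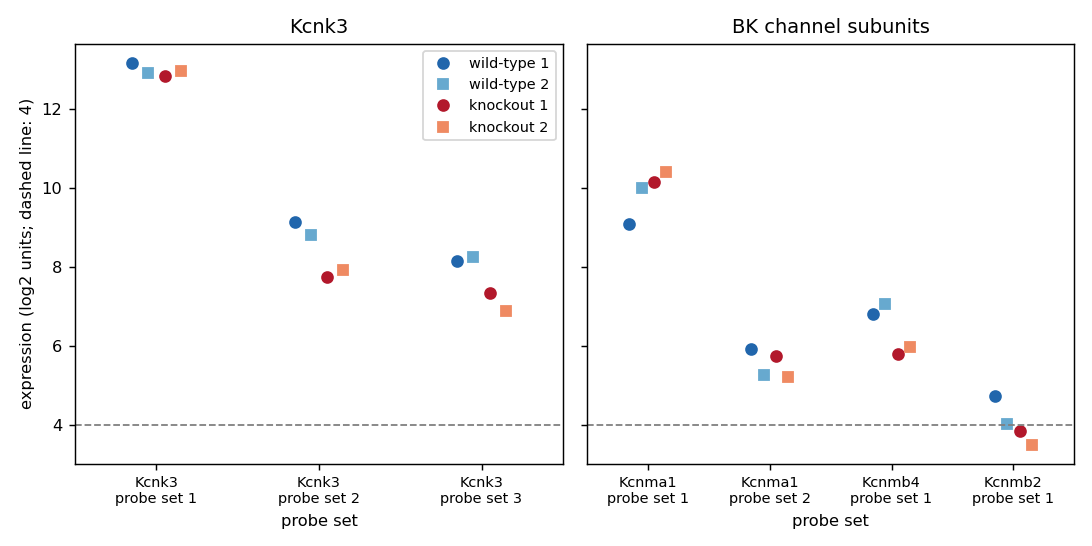
The plots show the value on each array (y axis: log2 units) for the 3 probe sets of Kcnk3 and for the tested probe sets of the BK channel subunits, numbered by mean value. The knockout arrays lie below the wild-type arrays in Kcnk3 probe sets 2 and 3 and in Kcnmb4, and overlap them in Kcnk3 probe set 1 and Kcnma1 probe set 2.

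Voltage-gated potassium channels were read from 6 pore genes and differed by less than their errors could resolve. Kcnq1, which forms slow delayed-rectifier channels, read 6.86 and 5.91 in wild-type glands against 6.73 and 6.99 in knockout glands, a difference of 0.47 (SE 0.39), which was 0.95 without wild-type array 1 and 0.00 without wild-type array 2. Kcnq3, a subunit of the M current, which Gq-coupled receptors close, read 4.96 and 5.44 against 5.39 and 5.65, a difference of 0.32 (SE 0.25, 95% interval -0.40 to 1.04), which was 0.08 without wild-type array 1. Kcnh2 (ERG1), a channel that shapes firing adaptation, averaged 5.78 ± 1.10 in wild-type and 5.58 ± 0.53 in knockout glands (mean ± SD, n = 2 each), with a difference of -0.19 (SE 0.65) that the gap of 1.55 between the wild-type arrays exceeded. Kcnc4, a voltage-gated channel, differed by -0.51 (SE 0.44), from 7.14 and 6.19 to 6.45 and 5.86. The difference of Kcnc4 was -0.03 without wild-type array 1 and -0.99 without wild-type array 2. The A-type channel Kcnd3 read 6.90 and 6.12 against 6.16 and 6.73, a difference of -0.07 (SE 0.39). Kcnd2, the other Kcnd gene above 4 on some arrays, read 3.46 and 4.55 in wild-type glands against 5.46 and 4.75 in knockout glands. Its difference was the largest among the genes that read higher, at 1.10 (SE 0.50, limma unadjusted p = 0.0967, adjusted p = 0.794). Wild-type array 1 was below background there, and without it the difference of Kcnd2 was 0.56. Kcna5 was above 4 on knockout array 1 alone, at 4.50, and Kcnt2, a sodium-activated channel, on wild-type array 2 alone, at 4.19. The silent subunits Kcnf1, Kcng1, Kcng2, Kcng4, Kcns1, Kcns2, Kcns3, Kcnv1 and Kcnv2 stayed at or below 2.58.

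Auxiliary potassium channel subunits were near background in most cases. Of the 7 tested, 6 read lower in the knockout and 1 higher, against 56.0% lower over all tested genes. Their median was -0.52, against -0.05 over all genes. Kcnmb2 passed the filter through the wild-type arrays alone, and Kcnip1 read 3.97 to 4.30. None of the 7 passed limma's adjusted threshold. Kcnab3, a beta subunit of Shaker-type channels, read 4.85 and 4.86 in wild-type glands against 5.36 and 5.25 in knockout glands, a difference of 0.45 (SE 0.16, limma unadjusted p = 0.0520, adjusted p = 0.794). Kcnip4, a calcium-binding partner of A-type channels, read 4.58 and 4.94 against 4.28 and 3.60, a difference of -0.82 (SE 0.32, limma unadjusted p = 0.0683, adjusted p = 0.794). It was -0.48 without knockout array 2. Kcnip3 read 5.58 and 4.05 against 4.52 and 4.06, with a difference of -0.52 (SE 0.60) that turned to 0.24 without wild-type array 1. Kcnip1 and Kcne4 differed by -0.14 and -0.19. Kcne1, Kcne2 and Kcne3, possible partners of Kcnq1, were below background. Kcnq1ot1, a noncoding RNA antisense to Kcnq1, reached 4 on wild-type array 1 alone, at 5.32.

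**Figure D4:**
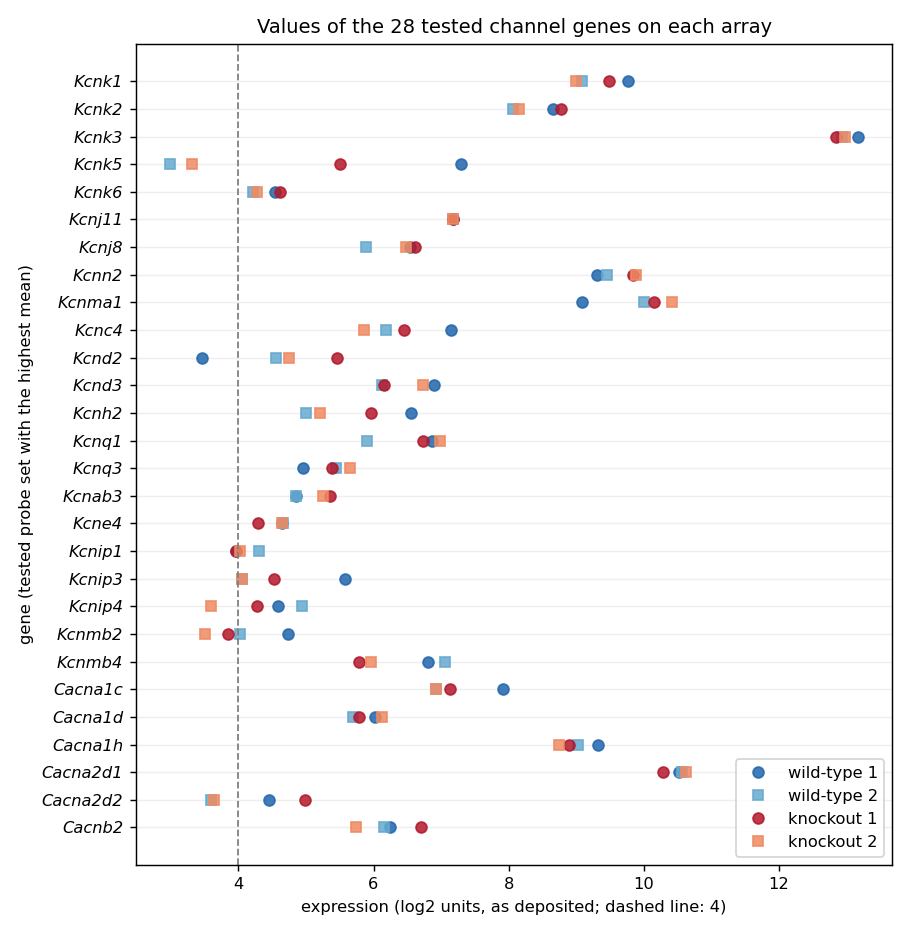
The plot shows each array (x axis: deposited log2 value) for the 28 tested channel genes, by subfamily. Levels of different probe sets are not comparable, so only the 4 points of a gene are to be read against each other. Kcnmb4 and Kcnn2 are among the 8 of 28 that separate by genotype (28.6%, against 37.7% of all tested genes), while Kcnk5 separates within each genotype.

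Of the calcium channel pores, 3 were read, 2 L-type and 1 T-type. Cacna1h (Cav3.2), the T-type channel of glomerulosa and chromaffin cells, read 9.32 and 9.03 in wild-type glands against 8.89 and 8.74 in knockout glands. Both knockout arrays were lower, by a mean of 0.36 with an SE of 0.20 (95% interval of the difference -0.92 to 0.20, limma unadjusted p = 0.146, adjusted p = 0.794). Without wild-type array 1 the difference was -0.21. Its other probe set was below 3. Cacna1c (Cav1.2), an L-type channel, read 7.91 and 6.92 against 7.13 and 6.93, a difference of -0.39 (SE 0.40), and 0.11 without wild-type array 1. Its second probe set differed by -0.20 (SE 0.21). Cacna1d (Cav1.3), the low-threshold L-type channel that is also mutated in aldosterone-producing adenomas, read 6.02 and 5.70 against 5.79 and 6.13, a difference of 0.09 (SE 0.23, 95% interval -0.56 to 0.75). For the brightest probe sets of these 3 genes limma's intervals stop short of a 2-fold higher level. Those of Cacna1d and Cacna1h also stop short of a 2-fold lower one. The scatter behind these intervals may be technical, so they do not exclude such a difference between animals.

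None of the accessory calcium channel subunits passed limma's adjusted threshold, and several had wide intervals. Cacna2d1, the alpha2delta subunit that brings channels to the surface, read 10.52 and 10.57 in wild-type glands against 10.29 and 10.62 in knockout glands, a difference of -0.09 (SE 0.20, 95% interval -0.66 to 0.48). A second probe set of Cacna2d1 read 4.49 and 7.13 against 4.77 and 5.27, a difference of -0.79 (SE 1.00, 95% interval -3.64 to 2.05). Cacnb2, a cytoplasmic beta subunit, read 6.25 and 6.15 against 6.70 and 5.74, a difference of 0.02 (SE 0.39), while its second probe set differed by 0.73 (SE 0.39, 95% interval -0.38 to 1.84), with both knockout arrays higher. Cacna2d2 read 4.46 and 3.59 against 4.99 and 3.64, a difference of 0.28 (95% interval -1.45 to 2.02). Cacnb1 and Cacnb4 were below background at 3.55 to 3.74 and 2.55 to 3.03.

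The 2 arrays of a genotype often differed more than the genotypes did. Over the 28 channel genes the median absolute difference was 0.54 between the wild-type arrays, 0.34 between the knockout arrays and 0.32 between genotype means, against 0.44, 0.14 and 0.24 over all tested genes. In 6 of the 28 the difference between genotypes was larger than the gap between arrays within each of them (21.4%, against 20.8% of all tested genes). In 13 of the 28 (46.4%, against 32.8% of all tested genes) array 1 read higher than array 2 in both genotypes, among them Kcnk5, Kcnh2, Kcnip3, Kcnc4, Kcnk1 and Kcnk2, chosen after their values were seen. In wild type alone array 1 was higher in 17 of the 28 (60.7%, against 63.6% of all). Chromaffin markers did so too in 10 of 11: their summed level was 15.83 and 15.19 in wild-type glands against 15.73 and 15.14 in knockout glands, on a log2 scale, with Dbh, the enzyme that makes noradrenaline, at 12.60 and 10.99 and at 12.02 and 10.96. One marker, Slc18a2, went the other way in wild type, at 6.40 and 6.80. The summed level of the steroid-making cortex was 16.52 and 16.50 in wild-type glands against 16.47 and 16.41 in knockout glands. Whether medullary RNA has a part in the spread of these channel genes was not tested. A number shared by 2 arrays is not known to pair them.

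**Figure D5:**
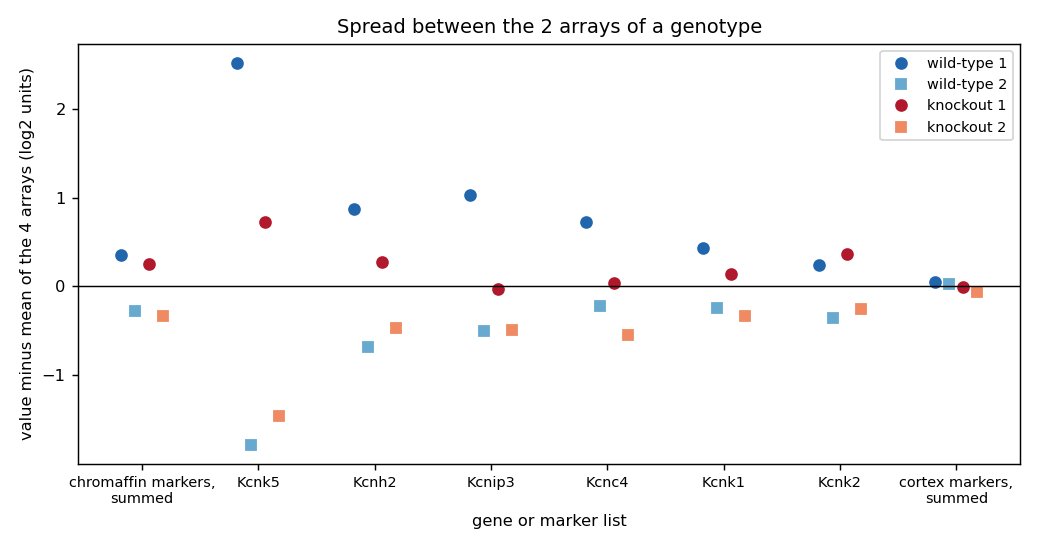
The plot gives each array's value minus the mean of the 4 arrays (y axis: log2 units) for 6 channel genes and for the summed levels of the chromaffin and cortex marker lists. Array 1 of each genotype lies above array 2 for chromaffin markers and the 6 genes, with Kcnk5 at 7.29 and 5.50 on the array numbered 1 and at 2.99 and 3.31 on the array numbered 2.

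Genes that work with these channels gave no call in limma over all probe sets. Of sodium, cation leak and pacemaker channel genes 5 of 15 on the array were tested, with 1 higher, 4 lower and a median difference of -0.27, which was 0.18 without wild-type array 1 and -0.72 without wild-type array 2. Unc80, a subunit of the sodium leak channel, read 7.38 and 6.35 in wild type against 6.33 and 5.99, a difference of -0.70 (SE 0.43). Scn3a, a voltage-gated sodium channel, differed by 0.39 (SE 0.16), and Scn2b, an auxiliary sodium channel subunit, by -0.21 (SE 0.16). In calcium release, entry and pumps, 12 of 22 were tested, 5 higher and 7 lower, with a median of -0.09. Orai1, the store-operated calcium channel, differed by -0.59 (SE 0.34) and Itpr2, an IP3 receptor, by -0.33 (SE 0.19), while Micu2, a regulator of mitochondrial calcium uptake, differed by -0.35 (SE 0.28). The sodium-potassium pump and chloride transport list had 8 of 9 tested, 5 higher and 3 lower, and a median of 0.04, with Clcn3, an intracellular chloride-proton exchanger, at 0.23 (SE 0.18), and the pump subunits Atp1b2 and Atp1b1 at -0.19 (SE 0.16) and 0.32 (SE 0.36). This median was 0.34 without wild-type array 1 and -0.23 without wild-type array 2. Channel partners had 5 of 14 tested, 4 higher and 1 lower, and a median of 0.05, with 0.39 without wild-type array 1. Besides Abcc9, Rrad, a GTPase that inhibits calcium channels, differed by 0.41 (SE 0.37) and Stac, an adaptor of L-type channels, by -0.28 (SE 0.29). Exocytosis genes had 12 of 15 tested, 5 higher and 7 lower, and a median of -0.10 (0.02 without wild-type array 1 and -0.39 without knockout array 1). Cadps and Unc13b, vesicle priming factors, differed by 1.02 (SE 0.52) and -0.57 (SE 0.37), and Syt4, a synaptotagmin, by 1.45 (SE 0.95). Wild-type array 1 stood apart in each: Syt4 read 5.50 and 8.03 in wild-type glands against 8.41 and 8.03 in knockout glands. Cadps read 5.59 and 6.88 against 7.49 and 7.04, and Unc13b 6.64 and 5.73 against 5.70 and 5.53. All these medians lay beside a median of -0.05 over all tested genes.

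Markers of other cells moved as follows. Fat cell markers had a summed level of 11.09 and 9.79 in wild-type glands against 8.47 and 10.69 in knockout glands, with 4 of 6 above background on all arrays. Ucp1, the brown fat uncoupler, read 10.05 and 7.24 against 2.80 and 5.91, lower on both knockout arrays as the dimmer 2 probe sets of Kcnk3 were, and Slc2a4, the insulin-regulated glucose transporter, read 7.56 and 7.48 against 5.61 and 6.31. The other fat markers above background did not follow: Retn, Cidec and Adipoq differed by 0.76, 0.02 and -0.26, overlapped between genotypes and were highest on knockout array 2. The part of fat cells in the reading of Kcnk3 was not tested. Schwann and glial markers were near background, with a summed level of 6.82 and 6.91 in wild-type glands against 6.24 and 6.50 in knockout glands, 1 of 5 above background, and S100b, Gfra3 and Foxd3 below it on all arrays. Sox10 read 4.15 and 4.16 against 3.65 and 3.05, and so passed the filter through the wild-type arrays alone. Both knockout arrays were lower, as in Kcnmb4, Kcnip4 and Kcnmb2 and in 20.5% of all tested genes. The part of Schwann and glial cells in any channel reading was not tested. Skeletal muscle markers were above background in 1 of 8 and kidney tubule markers in 2 of 8, with Acta1, Ckm, Umod and Slc12a1 below it on all arrays. Liver markers were above background on all arrays in 0 of 7, but their summed level was 10.46 and 7.51 in wild type against 5.50 and 5.40, and the part of such RNA in any channel reading was not tested. Macrophage markers summed to 11.92 and 12.27 in wild-type glands against 12.51 and 13.07 in knockout glands, with 8 of 8 above background. They did not move together: 5 read higher in the knockout and 3 lower, namely Csf1r (-0.22), Adgre1 (-0.17) and Cd14 (-0.08). C1qb, with the largest difference, read 6.31 and 9.97 in wild-type glands against 10.46 and 10.54. Endothelial markers summed to 11.53 and 11.03 in wild-type glands against 11.39 and 11.13 in knockout glands. Among zona glomerulosa markers Cyp11b2, the aldosterone synthase, differed by 0.18 (SE 0.27), and Vsnl1, a calcium sensor, by 0.52 (SE 0.16, limma unadjusted p = 0.0370, adjusted p = 0.794). Dab2 differed by 0.18 and Agtr1b by -0.17, and the genotypes overlapped in all of the 4 measured but Vsnl1. The summed levels of the list were 11.44 and 11.41 in wild-type glands against 11.64 and 11.64 in knockout glands.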

How the data were processed

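Adrenal RNA of 4 samples, 2 per genotype, was measured on Affymetrix Mouse Genome 430 2.0 arrays. The authors deposited log2 values, 1 per probe set, which the labels' protocols say came from GCRMA under Bioconductor 3.14. The GCRMA version is not stated in the sources. Its background step models probe affinity from sequence, which gathers weak probe sets near a floor and compresses their differences. The log2 scale was read from the values. The arrays' number limits the precision.

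The 64 control probe sets were left out. Members were taken from the platform annotation, and 222 of 222 member probe sets matched a gene ID of GRCm38.p6 with 0 symbols changed. Knockout minus wild type was fitted by lmFit and eBayes of limma 3.58.1 (R 4.3.3), with no trend and genotype as the only term, over the 17228 probe sets at 4 log2 units or more on at least 2 arrays, with Benjamini-Hochberg adjustment over all of them. SE and 95% intervals are limma's, and SD is that between a genotype's 2 arrays. The tested probe set with the highest mean stood for its gene. Summed levels are log2 of the sum of linear values. Scripts were tested on simulated data. Promoter windows run from 250 bases before to 50 after a start. Of 124 RefSeq symbols with these starts, 16 were not analysed here.

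Named are tested members of a panel of adrenal channels, members with an unadjusted p under 0.05, the 12 largest differences, up to 2 of the highest-reading members per subfamily, and up to 3 genes per companion or marker list. Other names were chosen after their values were seen. Members, lists and alternatives were chosen with earlier results of these data known. Samples with the same number deviated together at a correlation of 0.154 across probe sets, over 2 pairs, and are not known to be paired.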

Additional observations from a re-analysis of the deposited data

How the results depend on the processing

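With 2 arrays per genotype, no setting gave a channel probe set with an adjusted p under 0.05 in limma. Over all probe sets that count went from 0 to 2 with a filter at 6 log2 units, quantile normalization, arrays centred on the median or plain probe sets only, and the count at an unadjusted p under 0.05 from 885 to 1545 without a filter and to 169 to 6507 without 1 array. The 4 channel probe sets at an unadjusted p under 0.05 became 2 with plain probe sets only (7.69%, against 5.26% of all) and 1 to 9 without 1 array. With the replicate number as a block there were 3, as Kcnn2 had an unadjusted p of 0.0999 in limma, and 684 over all probe sets, with 0 at an adjusted p under 0.05, and no other call changed. Channel probe sets whose genotypes did not overlap numbered 9 higher and 10 lower of 222 without a filter (4.05% and 4.50%, against 8.33% and 10.3% of all probe sets), 2 higher of 20 with a filter at 6 (10.0%, against 17.9%) and 3 lower of 26 with plain probe sets only (11.5%, against 19.6%). Without 1 array, where a lone array makes overlap less likely, they numbered 7 to 16 higher and 9 to 16 lower (20.0% to 45.7% and 25.7% to 45.7%), against 26.6% to 42.3% and 30.4% to 51.9% of all. Genes read above background numbered 37 at 3 log2 units and 10 at 6. Without 1 array the median of the channel genes was -0.16 to 0.19, that of the pump and chloride list -0.23 to 0.34 that of channel partners -0.06 to 0.39, that of sodium, leak and pacemaker channels -0.72 to 0.18 and that of exocytosis -0.39 to 0.02. The median of calcium release, entry and pumps was 0.00 without a filter and 0.06 with a filter at 6. The difference changed sign without 1 array in 13 of the 28 tested genes: Cacna1c (-0.89 to 0.11), Cacna1d (-0.07 to 0.26), Cacna2d1 (-0.26 to 0.08), Cacna2d2 (-0.39 to 0.96), Cacnb2 (-0.46 to 0.50), Kcnd3 (-0.46 to 0.32), Kcnh2 (-0.97 to 0.58), Kcnip1 (-0.31 to 0.02), Kcnip3 (-1.29 to 0.24), Kcnk1 (-0.53 to 0.15), Kcnk2 (-0.20 to 0.42), Kcnk5 (-2.88 to 1.41) and Kcnk6 (-0.11 to 0.23). Of the other genes, Kcnq1 and Kcnj8 reached 0.00 (0.00 to 0.95 and 0.00 to 0.65), and Kcnma1 (0.29 to 1.20), Kcnmb2 (-1.07 to -0.35), Kcnc4 (-0.99 to -0.03), Kcnd2 (0.56 to 1.64), Kcne4 (-0.36 to -0.01), Kcnip4 (-1.17 to -0.48), Cacna1h (-0.50 to -0.21), Kcnq3 (0.08 to 0.56) and the brightest probe set of Kcnk3 (-0.26 to -0.02) moved by over 1.5 times. The mean of its 3 probe sets gave Kcnk3 a difference of -0.79 in place of -0.14, and Cacna2d1 -0.44 in place of -0.09. Apart from fewer samples or probe sets, the cause was not tested.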
